A study of Mus musculus with 9 samples.

Results

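Respiratory complex I, or NADH:ubiquinone oxidoreductase, is described here through the mouse genes whose symbols begin with Nduf, on arrays of left ventricles. The authors' deposited table of comparisons gives such a symbol to 46 probe sets, which stand for 42 of the 23069 genes measured. For the 4 genes with more than 1 probe set, the brightest by its mean over the 9 arrays was taken. The 42 genes are 7 core subunits, 28 accessory subunits, 5 assembly factors (Ndufaf1, Ndufaf3, Ndufaf4, Ndufaf5 and Ndufaf6), and Ndufa4 and Ndufa4l2. The last pair share the name but are now placed with cytochrome c oxidase, so they are not part of complex I. Ndufb1, Ndufb4, Ndufaf2, Ndufaf7 and Ndufaf8 have no probe set under these symbols in that table and are not analysed here as members.

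The arrays come from male mice in 3 groups of 3, with 1 array per sample, after 50 days on a custom diet. The groups are labelled LRAT -/- on the vitamin A deficient diet, LRAT -/- on the sufficient diet and wild-type on the sufficient diet. The sufficient diet was the deficient one with 250000 U/kg of added retinol palmitate. Lrat encodes lecithin retinol acyltransferase, the enzyme that turns retinol into retinyl esters for storage. The labels state neither age, strain nor allele. Wild-type hearts after the deficient diet are not analysed here. No label says whether an array stands for 1 animal, so p-values cover the spread between these samples, which may be technical.

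Complex I takes electrons from NADH, passes them through a flavin and a chain of iron-sulfur clusters to ubiquinone, and pumps protons across the inner mitochondrial membrane. Its catalytic core is shared with bacteria. Of the core subunits in mammals, one set is encoded in the nucleus and carries the flavin and the iron-sulfur clusters, while the ND subunits are encoded by mitochondrial DNA and form the proton-pumping membrane arm. Accessory subunits surround the core and are needed for its assembly and stability, and assembly factors help to build the enzyme without staying in it. The working ventricle is dense in mitochondria and makes most of its ATP by the respiration that this enzyme feeds.

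All values are log2 signals after RMA, a procedure that corrects background, brings the arrays to a like distribution and summarises each probe set. A log2 difference of 1 is a 2-fold difference. The 42 genes had mean signals of 7.80 to 13.73 with a median of 12.15, and all 42 lay above 7.53, the 95th percentile of 5222 negative control probe sets. Brightness depends on each probe set's own probes, so no gene's signal is set against another's. Differences were tested with limma over all 23069 genes, and a gene was called when its Benjamini-Hochberg adjusted p was under 0.05. An interval beside a difference is its 95% confidence interval. In whole tissue such as this, fewer cells of a type and less RNA per cell cannot be told apart.

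The arrays were alike as a whole. Their medians over all probe sets lay between 6.38 and 6.43, and Pearson correlations across genes ran from 0.991 to 0.997 for arrays of 1 group and from 0.990 to 0.997 for arrays of different groups. Myh6, Tnnt2, Tnni3, Myl2 and Mb, which mark ventricular muscle, were bright on every array. Their average was 13.77 to 13.83 on the deficient and 13.77 to 13.85 on the sufficient LRAT -/- arrays. In wild type it was 13.88 to 13.91, so every wild-type array was slightly above every LRAT -/- array. The targeted gene Lrat had signals of 6.84, 6.78 and 6.96 on the deficient LRAT -/- arrays, 7.29, 7.34 and 7.38 on the sufficient LRAT -/- arrays, and 5.81, 5.78 and 5.73 in wild type. It was thus higher where the labels give the knockout, by 1.57 on the sufficient diet (limma, adjusted p = 1.87e-05), although every one of these signals is below that control percentile. The sources do not say whether the probes fall inside the deletion. Below, LRAT -/- means arrays labelled so, and every direction by genotype rests on that label. Among the 42 genes wild-type array 3 stood apart: it had the highest signal of all 9 arrays for 22 of them, whereas 12.0% of all genes were highest there. Related gene lists, described below, shared this in part. The mean of 11 genes taken for mitochondrial content was 11.91 there and 11.62 to 11.79 on the other arrays. For 14 assembly factors without an Nduf name it was 9.69 there and 9.45 to 9.58 elsewhere. Complex II genes and the NADH and ubiquinone enzymes were highest there by less. The mitochondrially encoded subunits and the regulators of mitochondrial genes had their highest mean on sufficient LRAT -/- array 2.

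RefSeq promoter sequences of assembly GRCm38.p6 were found by symbol for 36 of the 42 genes, and the 250 bases before the annotated start were searched on both strands. Because the study concerns vitamin A, the search was for AGGTCA, the hexamer that retinoic acid receptors and many other nuclear receptors bind. It occurs in 4 of the 36 windows, those of Ndufb2, Ndufb10, Ndufs5 and Ndufs8, and in 15.8% of 27025 genes with such a window. Its direct repeats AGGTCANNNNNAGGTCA and AGGTCANNAGGTCA, which such receptors bind as pairs, occur in 0 of the 36 windows, and in 0.0111% and 0.0074% of the 27025 genes. TCAAGGTCA of the estrogen-related receptors, which contains the hexamer, also occurs in 0 of the 36 (0.422% of all genes). Of motifs known from promoters of mitochondrial genes, CCGGAAG of ETS factors occurs in 4 windows (7.83% of all genes) and GGGGCGGGG of Sp1 in 5 (11.8%). The core of nuclear respiratory factor 1 occurs in 2 windows, of Ndufa11 and Ndufaf4 (0.877%), and that of YY1 in 0 (0.248%). Ndufa12, whose window lacks the hexamer, had the largest differences of the 42 from wild type. Ndufb10, whose window holds it, had the largest difference between the LRAT -/- diets. The windows below belong to the genes that hold the hexamer and to Ndufa12. They read 5′ to 3′ on the gene's strand, and capitals mark AGGTCA or its reverse complement TGACCT. The windows lie at chr17:24724424-24724673 on the minus strand (Ndufb10), chr4:123718187-123718436 on the minus strand (Ndufs5), chr6:39592315-39592564 on the plus strand (Ndufb2), chr19:3912775-3913024 on the minus strand (Ndufs8) and chr10:94198785-94199034 on the plus strand (Ndufa12).
Ndufb10: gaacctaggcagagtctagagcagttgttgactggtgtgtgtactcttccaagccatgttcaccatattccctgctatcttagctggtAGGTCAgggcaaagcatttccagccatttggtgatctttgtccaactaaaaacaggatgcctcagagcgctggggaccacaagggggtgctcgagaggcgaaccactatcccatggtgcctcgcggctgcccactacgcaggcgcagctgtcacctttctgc
Ndufs5: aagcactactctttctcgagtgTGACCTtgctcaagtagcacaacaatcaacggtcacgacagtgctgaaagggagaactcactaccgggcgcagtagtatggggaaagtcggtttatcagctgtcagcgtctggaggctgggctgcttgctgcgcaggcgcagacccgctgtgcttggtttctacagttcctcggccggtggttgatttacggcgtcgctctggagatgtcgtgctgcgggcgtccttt
Ndufb2: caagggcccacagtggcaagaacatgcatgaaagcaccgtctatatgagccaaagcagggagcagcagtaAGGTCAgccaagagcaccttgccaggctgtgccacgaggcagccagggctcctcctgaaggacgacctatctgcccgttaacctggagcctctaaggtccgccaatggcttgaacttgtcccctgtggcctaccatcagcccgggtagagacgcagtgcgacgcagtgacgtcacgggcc
Ndufs8: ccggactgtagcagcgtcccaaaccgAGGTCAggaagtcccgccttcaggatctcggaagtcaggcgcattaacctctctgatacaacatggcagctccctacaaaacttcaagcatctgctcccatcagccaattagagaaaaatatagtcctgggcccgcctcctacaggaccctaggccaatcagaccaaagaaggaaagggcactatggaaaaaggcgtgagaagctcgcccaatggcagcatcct
Ndufa12: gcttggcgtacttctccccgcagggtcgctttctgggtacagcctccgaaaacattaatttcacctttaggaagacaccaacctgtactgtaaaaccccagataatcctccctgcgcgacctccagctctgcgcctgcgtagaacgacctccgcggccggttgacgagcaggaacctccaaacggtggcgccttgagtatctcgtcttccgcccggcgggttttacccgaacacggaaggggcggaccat

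A match of letters is a description of the window and not evidence of binding, and its absence says only that these letters are not in this window. Each hexamer stands alone, at positions -162 in Ndufb10, -180 in Ndufb2, -224 in Ndufs8 and -228 in Ndufs5, counted from the annotated start. In Ndufs5 it is on the opposite strand.

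Sufficient LRAT -/- against wild type asks what the labelled knockout changes while vitamin A is supplied. The core subunit Ndufs8 and the accessory subunit Ndufb2 had lower signals in the knockout-labelled hearts and Ndufa12 a higher one, each with an unadjusted p under 0.05, and none passed after adjustment over all genes. None of the 42 genes was called, against 31 of all 23069 genes (0.134%), and the lowest adjusted p among them was 0.537, of Ndufa12. An unadjusted p under 0.05 was reached by 4 of the 42, 1 higher (Ndufa12) and 3 lower, Ndufb2 and Ndufs8 among them, where 3.13% of all genes reached it as higher and 3.77% as lower, 6.9% in all, and 10.7% of the 2346 genes with a mean signal of 10 or more. That bound for bright genes was chosen after the values were seen. Of the 42, 15 were higher and 27 lower, with a median difference of -0.04, beside a median of -0.0009 for all genes, of which 49.6% were higher, and 46.5% of the bright ones. This lean is unsteady: the median was 0.007 with limma's array weights, which lower the influence of arrays that depart from their group, and -0.01 with 19 higher after the arrays were quantile normalized once more. For 41 of the 42, all but Ndufa12, the interval stayed within a 1.5-fold change either way.

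The nuclear core subunits were mostly a little lower on the arrays labelled LRAT -/-, with 6 of 7 below wild type and a median difference of -0.11, and none passed the test. Ndufs8, which carries a pair of iron-sulfur clusters, had signals of 12.92, 12.76 and 12.64 on the LRAT -/- sufficient arrays, against 13.04, 12.98 and 12.99 in wild type. All 3 LRAT -/- signals lay below all 3 wild-type ones, with a difference of -0.23 ± 0.10 (SE, limma, adjusted p = 0.722).

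The core subunits given next overlapped between these groups. Ndufv1, which binds NADH and the flavin, had 12.56, 12.44 and 12.47 in sufficient LRAT -/-, against 12.65, 12.49 and 12.59 in wild type (-0.09 ± 0.07, SE, limma, adjusted p = 0.835). Ndufs1, an iron-sulfur subunit of the NADH-oxidising arm, had 11.13, 11.02 and 11.16 in sufficient LRAT -/-, against 11.18, 11.09 and 11.36 in wild type. Ndufs3, of the arm that leads to ubiquinone, had 12.63, 12.43 and 12.38 in sufficient LRAT -/-, against 12.61, 12.55 and 12.69 in wild type. The differences of Ndufs1 (-0.11) and Ndufs3 (-0.13) were within the range of their own arrays. Ndufs7, which holds the last iron-sulfur cluster before ubiquinone, had 13.71, 13.69 and 13.56 in sufficient LRAT -/-, against 13.67, 13.66 and 13.73 in wild type. Ndufv2, the iron-sulfur partner of Ndufv1, had 13.51, 13.60 and 13.52 in sufficient LRAT -/-, against 13.48, 13.54 and 13.51 in wild type. The 7 differences thus ran from -0.23 to 0.03.

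Among the 28 accessory subunits 10 were higher and 18 lower, with a median of -0.03 and none called. Ndufa12, an accessory subunit of the arm that reaches into the matrix, stood apart from the others. Its probe set is 10365887 and the gene lies on chromosome 10. It had signals of 12.23, 12.45 and 12.18 on the LRAT -/- sufficient arrays, against 11.23, 11.57 and 12.17 on the wild-type arrays. The groups touched without overlapping, since wild-type array 3 lay just below the lowest LRAT -/- array while wild-type arrays 1 and 2 were far lower. The difference was 0.63 ± 0.20 (SE; interval 0.18 to 1.07; limma, adjusted p = 0.537). Without wild-type array 3 it was 0.88 and passed (adjusted p = 0.0208), the only one of the 42 to do so, with 109 genes called in place of 31. Without any other array its adjusted p was between 0.414 and 0.964.

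Ndufb2, an accessory subunit of the membrane arm, had 11.31, 11.17 and 11.45 on the LRAT -/- sufficient arrays, against 11.47, 11.53 and 11.72 in wild type, a difference of -0.26 ± 0.11 (SE, limma, adjusted p = 0.714). Ndufa7 was the other accessory subunit whose LRAT -/- sufficient arrays all lay below wild type (-0.14). In all, 1 of the 42 had non-overlapping groups in the higher and 4 in the lower direction, where 3.69% of all genes did as higher and 4.27% as lower (7.96% in all). Among bright genes the shares were 4.99% higher and 6.91% lower (11.9% in all). The 5 assembly factors ran from -0.09 for Ndufaf5, which modifies an arginine of Ndufs7, to 0.18 for Ndufaf4, with overlapping groups in all 5. Ndufaf4, which works with Ndufaf3 early in assembly, had 10.42, 10.32 and 10.25 in sufficient LRAT -/-, against 10.08, 9.96 and 10.42 in wild type, where array 3 was as high as any LRAT -/- array (0.18 ± 0.11, SE, limma, adjusted p = 0.795). A p under 0.05 for this pair of groups was given to 1 of the 42 genes in the authors' deposited table, where 6.23% of 35556 probe sets had one. The deposited ratio of Ndufb2 was 0.969 and did not come with such a p.

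**Figure D1:**
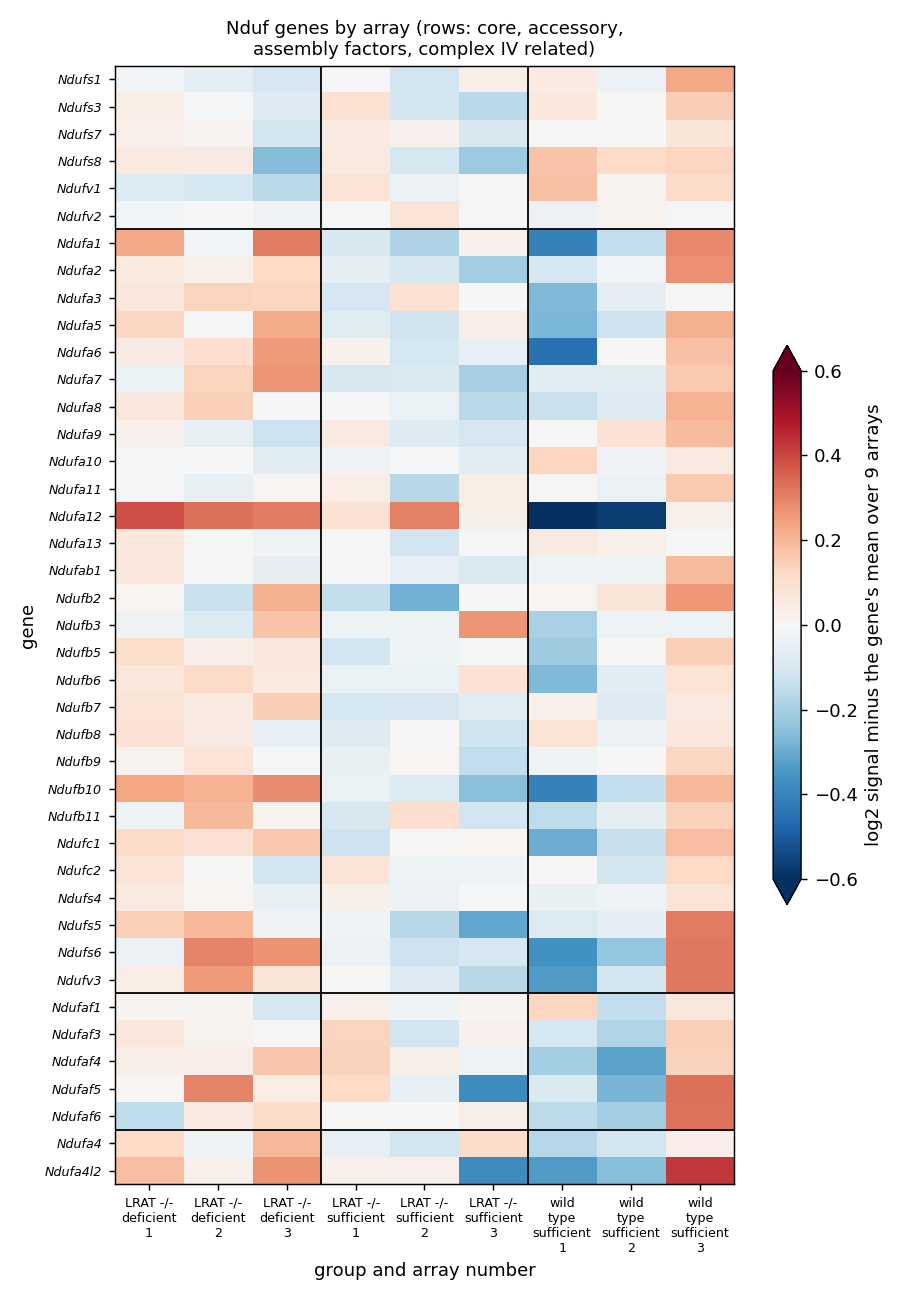
Each row is 1 of 41 of the 42 genes and each column 1 array, and colour is the log2 signal minus that gene's mean over the 9 arrays, with lines between the groups and between core, accessory, assembly factor and complex IV related genes. Wild-type array 3 is red for most rows, wild-type array 1 is blue for many accessory subunits, and Ndufa12 is darkest blue on wild-type arrays 1 and 2.

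Deficient against sufficient LRAT -/- hearts ask what removing vitamin A from the food changes in mice labelled LRAT -/-. Accessory subunits such as Ndufb10, Ndufb7 and Ndufa7 had higher signals on the deficient diet and Ndufv1 a lower one, none past the test. None of the 42 genes was called, and neither was any of the 23069 (0%). With limma 3 of the 42 had an unadjusted p under 0.05, all higher (Ndufb7, Ndufb10 and Ndufa7), where 2.31% of all genes had one as higher and 2.07% as lower, 4.38% in all, and 8.61% of the bright genes. In the authors' deposited table none of the 42 had a p under 0.05, against 4.89% of probe sets. The lowest adjusted p among the 42 was 0.959. All 42 intervals stayed within a 2-fold change, and 36 within 1.5-fold.

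Most accessory subunits nonetheless had the higher mean on the deficient diet. Of 28, 25 were higher and 3 lower with a median of 0.13, while the 7 core subunits had 3 higher and 4 lower with a median of -0.01. The 42 genes together had 33 higher and 9 lower and a median of 0.09, beside a median of -0.0014 for all genes, of which 49.4% were higher. Bright genes leaned the same way: 57.4% of the 2346 genes with a mean signal of 10 or more were higher. The lean depended on the scaling, since after the repeated quantile normalization 25 of the 42 were higher and the median was 0.04. In the authors' deposited table the ratio for this pair was above 1 for 26 of the 42. The groups of 11 of the 42 did not overlap in the higher direction and of 1 in the lower, where 4.72% of all genes did as higher and 4.94% as lower (9.67% in all). Of the bright genes 12.1% did as higher and 9.59% as lower (21.7% in all).

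Ndufb10, a subunit of the membrane arm that faces the intermembrane space, had the largest difference. Its signals were 10.82, 10.79 and 10.87 on the deficient and 10.54, 10.50 and 10.33 on the sufficient arrays labelled LRAT -/-, a difference of 0.37 ± 0.13 (SE; interval 0.07 to 0.67; limma, adjusted p = 0.959). All deficient arrays were above all sufficient ones, but the wild-type arrays, at 10.18, 10.43 and 10.78, spanned nearly the whole range. The authors' deposited ratio of Ndufb10 was 1.20 for this pair and 1.18 for sufficient LRAT -/- against wild type. Neither came with a p under 0.05, and the log2 difference here was -0.008 for the latter.

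Ndufb7, which also faces the intermembrane space, had 12.11, 12.09 and 12.18 on the deficient arrays, against 11.92, 11.93 and 11.96 on the sufficient ones (0.19 ± 0.06, SE, limma, adjusted p = 0.959). Its groups were narrow and apart. Ndufa7, an accessory subunit of the matrix arm, had 11.77, 11.95 and 12.07 on the deficient arrays, against 11.71, 11.72 and 11.61 on the sufficient ones, and these too did not overlap. Ndufs5, another subunit of the intermembrane face, had 11.42, 11.48 and 11.26 on the deficient arrays, against 11.26, 11.11 and 10.97 on the sufficient ones (0.27 ± 0.12, SE, limma, adjusted p = 0.959). The groups of Ndufs5 met at 1 array each. Ndufa12, Ndufa2, Ndufa6, Ndufa8, Ndufb5, Ndufc1 and Ndufv3 were the other accessory subunits with all deficient arrays higher, by differences of 0.12 to 0.20.

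Ndufv1 went the other way. Its signals were 12.39, 12.37 and 12.31 on the deficient arrays, against 12.56, 12.44 and 12.47 on the sufficient arrays labelled LRAT -/-, and it was the one gene of the 42 whose deficient arrays all lay lower. The difference was -0.13 ± 0.07 (SE, limma, adjusted p = 0.959). The core subunits Ndufs1, Ndufs3, Ndufs7, Ndufs8 and Ndufv2 had overlapping groups and differences between -0.03 and 0.05. On the deficient arrays Ndufs1 had 11.11, 11.07 and 11.03, and Ndufs3 had 12.58, 12.54 and 12.46. Ndufs7 had 13.69, 13.68 and 13.55 there, and Ndufv2 was nearly level with 13.51, 13.52 and 13.50. The 5 assembly factors lay between -0.03 (Ndufaf1) and 0.22 (Ndufaf5), and Ndufa4 and Ndufa4l2 at 0.12 and 0.27.

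**Figure D2:**
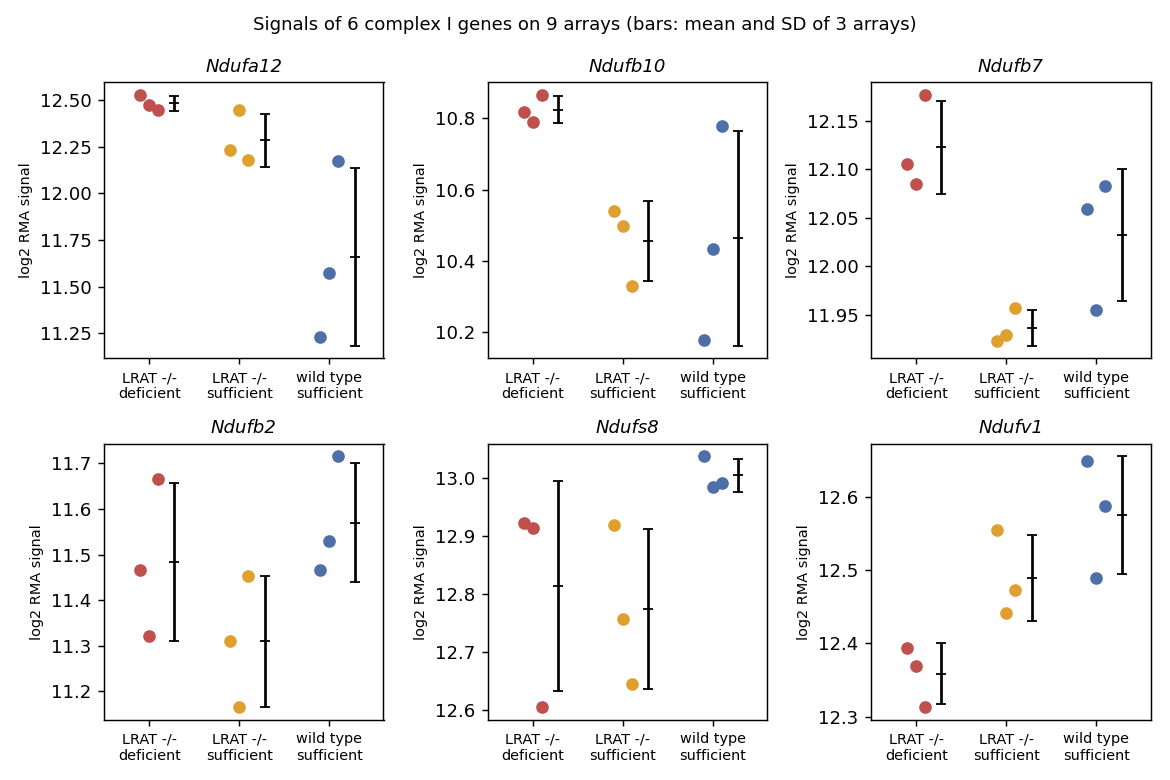
Points are log2 RMA signals on single arrays of 6 genes in the 3 groups, and the bar beside each group is its mean with the SD of 3 arrays; each panel has its own axis. Ndufa12 spreads from 11.23 to 12.17 in wild type, Ndufb10 and Ndufb7 are higher on all deficient than on all sufficient LRAT -/- arrays, and Ndufb2, Ndufs8 and Ndufv1 have their highest means in wild type.

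The comparison of LRAT -/- on the deficient diet with wild type on the sufficient diet changes genotype and diet together. Ndufa12 had the largest difference here too, and all core subunits had lower means, again without passing. The deficient arrays are shared with the diet comparison and the wild-type arrays with the genotype comparison, so the values are not independent of theirs. None of the 42 genes was called, against 30 of all genes (0.13%), and the lowest adjusted p was 0.235, of Ndufa12. An unadjusted p under 0.05 was found for 4 of the 42, 3 higher (Ndufa12, Ndufb10 and Ndufa3) and 1 lower (Ndufv1), where 3.75% of all genes had one as higher and 5.29% as lower, 9.04% in all, and 16.6% of the bright genes. Of the 42, 25 were higher and 17 lower with a median of 0.06, where 49.7% of all genes and 52.1% of bright ones were higher, and the repeated quantile normalization gave 23 higher and a median of 0.03. A total of 5 of the 42, Ndufa12, Ndufb10, Ndufs1 and Ndufv1 among them, had a p under 0.05 for this pair in the authors' deposited table, where 7.74% of probe sets did, and the lowest deposited false discovery rate of the 42 over the 3 groups was 0.616.

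All 7 nuclear core subunits had the lower mean in LRAT -/- on the deficient diet, by differences from -0.22 to -0.01 with a median of -0.11, and none passed. Ndufv1 was furthest, at -0.22 ± 0.07 (SE; interval -0.37 to -0.06; limma, adjusted p = 0.412), with 12.39, 12.37 and 12.31 on the deficient arrays, against 12.65, 12.49 and 12.59 in wild type. Ndufs8 (-0.19) also had groups without overlap, with 12.92, 12.91 and 12.60 on the deficient arrays. Ndufs1, Ndufs3, Ndufs7 and Ndufv2 overlapped with wild type.

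Accessory subunits were split, with 19 of 28 higher and a median of 0.09. Ndufa12 had 12.53, 12.48 and 12.45 on the deficient arrays, all above the wild-type 11.23, 11.57 and 12.17. The difference was 0.82 ± 0.20 (SE; interval 0.38 to 1.27; limma, adjusted p = 0.235). It passed without wild-type array 3 (1.08, adjusted p = 0.0101), when 283 genes were called in place of 30, and not without any other array (adjusted p from 0.297 to 0.623). Array weights also brought it past the threshold (0.88, adjusted p = 0.0462, with 76 genes called). The authors' deposited ratio for Ndufa12 was 2.14, with a deposited p of 0.0188.

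Ndufb10 was at 0.36 ± 0.13 (SE, limma, adjusted p = 0.48), with wild-type array 3 just under the lowest deficient array. Ndufa3, a small accessory subunit that spans the membrane, had 13.37, 13.44 and 13.43 on the deficient arrays, against 13.04, 13.24 and 13.31 in wild type (0.22 ± 0.08, SE, limma, adjusted p = 0.512). On the lower side Ndufa9, an accessory subunit at the junction of the arms, had 12.35, 12.28 and 12.20 on the deficient arrays, against 12.32, 12.41 and 12.52 in wild type, and the ranges overlapped (-0.14 ± 0.08, SE, limma, adjusted p = 0.623). Groups did not overlap for 4 of the 42 in the higher and 3 in the lower direction, where 5.13% of all genes did as higher and 6.38% as lower (11.5% in all), and 8.1% and 10.6% of bright ones (18.7% in all). A moderated F test over the 3 groups called 0 of the 42 and 28 of all genes (0.121%), and 5 of the 42 had an unadjusted F p under 0.05, where 7.14% of all genes did.

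**Figure D3:**
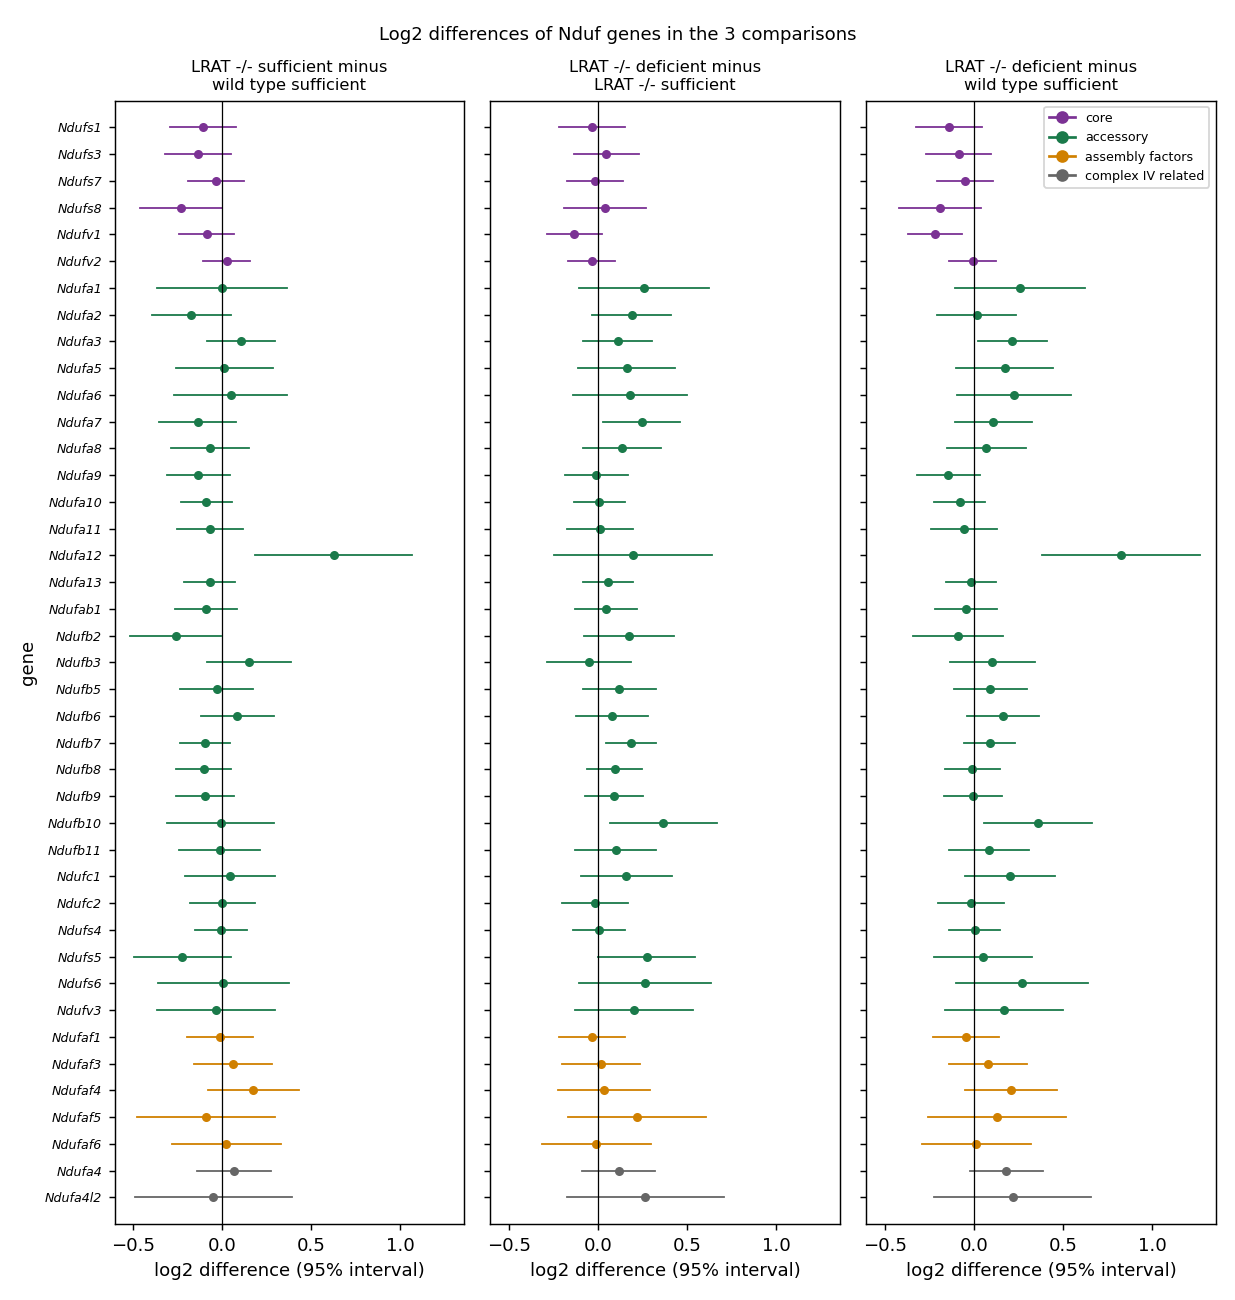
Points are log2 differences from limma and lines their 95% intervals for 41 of the 42 genes in the 3 comparisons, coloured by role. Most intervals cross 0, Ndufa12 lies far right in both comparisons with wild type (0.63 and 0.82), and the core subunits lie at or left of 0 in the panel of deficient LRAT -/- against wild type.

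The wild-type arrays spread most. The median SD of the 42 genes was 0.07 in deficient LRAT -/- hearts (0.09 over all genes), 0.08 in sufficient LRAT -/- hearts (0.11 over all genes) and 0.14 in wild type (0.11 over all genes). The bright genes shared this order, with 0.09 in deficient LRAT -/-, 0.11 in sufficient LRAT -/- and 0.15 in wild type. The SD was larger in wild type than in deficient LRAT -/- for 34 of the 42 and than in sufficient LRAT -/- for 32. Wild-type array 3 exceeded both other wild-type arrays for 34 of the 42, against 29.7% of all genes and 53.8% of the 2346 bright ones. Wild-type array 1 was lowest of the 9 for 15 of the 42, and 12.3% of all genes were lowest there.

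Ndufa1, encoded on chromosome X and part of the membrane-side junction, shows the pattern with 11.35, 11.11 and 11.44 in deficient LRAT -/- hearts, against 10.72, 10.98 and 11.41 in wild type. Ndufs6, which holds a zinc ion, had 11.89, 11.80 and 11.82 in sufficient LRAT -/- hearts, against 11.56, 11.69 and 12.24 in wild type. Ndufv3, an accessory subunit of the NADH-oxidising arm, had 10.66, 10.57 and 10.49 in sufficient LRAT -/- hearts, against 10.31, 10.54 and 10.97 in wild type. For each of these the wild-type arrays alone covered more than 0.6 on the log2 scale, more than any of their group differences. Ndufs4, an accessory subunit of the matrix arm, varied little by contrast (SD 0.07 in wild type), as did Ndufv2 (0.03) and Ndufs7 (0.04).

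Centred on each gene's own mean, the median of the 42 was 0.05, 0.03 and 0.03 on the deficient LRAT -/- arrays, -0.01, -0.05 and -0.04 on the sufficient LRAT -/- arrays, and -0.08, -0.06 and 0.14 on the wild-type arrays. Wild-type array 3 stands above every other array and the other wild-type arrays stand below. Without it the median difference of LRAT -/- from wild type on the sufficient diet became 0.04 in place of -0.04, with 24 of 42 higher. For deficient LRAT -/- against wild type it became 0.15 in place of 0.06, with 30 of 42 higher, while without wild-type array 2 it was 0.00.

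**Figure D4:**
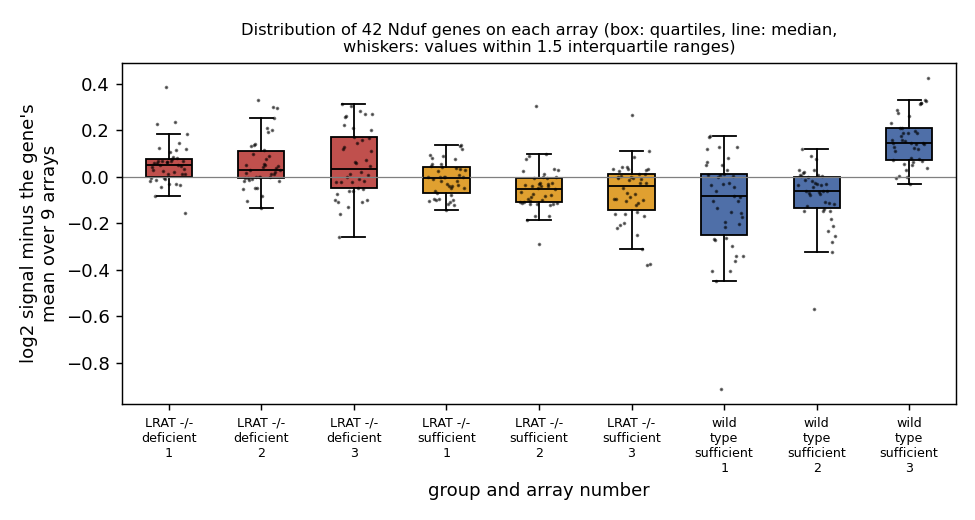
Each box shows the quartiles and median, over the 42 genes, of the log2 signal minus the gene's mean over 9 arrays, with whiskers to values within 1.5 interquartile ranges and points for single genes. The median of wild-type array 3, at 0.14, is above all others, and wild-type array 1 has a long lower tail that ends with Ndufa12.

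No marker gene of the cell types listed was called in any comparison, but the signals of several lists leaned one way. The summed signal of 5 measured red cell markers, as log2, was 14.65 to 14.94 on the deficient and 14.55 to 14.68 on the sufficient arrays labelled LRAT -/-, and 14.40 to 14.53 in wild type. All 5 had higher means in each comparison (lowest adjusted p = 0.151, limma, in deficient LRAT -/- against wild type), and none was at 0. Ahsp, a chaperone of alpha globin, had signals of 7.69 to 9.51 on the deficient and 7.35 to 8.05 on the sufficient LRAT -/- arrays and 5.71 to 6.80 in wild type. The sum of 8 cardiomyocyte markers was 16.73 to 16.78 on the deficient and 16.76 to 16.82 on the sufficient LRAT -/- arrays and 16.83 to 16.84 in wild type, with 8 of 8 lower in LRAT -/- on the deficient diet than in wild type. The sum of 6 endothelial markers was 12.32 to 12.52 on the deficient and 12.46 to 12.78 on the sufficient LRAT -/- arrays and 12.50 to 13.16 in wild type. That of 6 fibroblast markers was 13.45 to 13.66 on the deficient and 13.71 to 13.75 on the sufficient LRAT -/- arrays and 13.65 to 13.96 in wild type. The sum of 4 smooth muscle markers was 11.16 to 11.50 on the deficient and 11.89 to 13.20 on the sufficient LRAT -/- arrays and 11.09 to 11.97 in wild type. This sum is mostly Acta2, at 11.75 to 13.15 on the sufficient LRAT -/- arrays. Myh11, Tagln and Cnn1 were below the control percentile of 7.53 on every array. All 4 smooth muscle markers had higher means in sufficient LRAT -/- than in wild type and lower means on the deficient than on the sufficient diet. Both counts use the same sufficient LRAT -/- arrays. All 4 white adipocyte markers (median 0.20) and all 4 atrial myocyte markers (median 0.37) had higher means on the deficient than on the sufficient diet, the side to which the accessory subunits leaned. The white adipocyte sum was 8.02 to 8.44 on the deficient and 7.77 to 8.14 on the sufficient LRAT -/- arrays, and the atrial sum 11.59 to 11.68 on the deficient and 10.51 to 11.82 on the sufficient ones. However, all 4 white adipocyte markers, and Sln of the atrial list, were below 7.53, the control percentile, on every array. Their single signals are thus within the range of the negative controls. Of 5 macrophage markers 4 had higher means on the deficient diet (median 0.23), and brown adipocyte and skeletal muscle markers went both ways in each comparison. The part of these markers in the values of the 42 genes was not tested.

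The subunits encoded by mitochondrial DNA were measured for 6 of 7 genes, and none was called in any comparison. All 6 were higher in LRAT -/- than in wild type on the sufficient diet (median 0.09) and all 6 lower on the deficient than on the sufficient diet (median -0.14), and both statements rest on the same sufficient LRAT -/- arrays. mt-Nd2, a membrane-arm subunit, had 14.33, 14.34 and 14.40 on the deficient arrays, against 14.44, 14.57 and 14.52 on the sufficient arrays labelled LRAT -/- and 14.37, 14.43 and 14.41 in wild type. Its diet groups did not overlap (-0.15, limma, adjusted p = 0.959). mt-Nd6, encoded on the strand opposite to the other ND genes, varied widely within groups, from 7.66 to 10.50 on the sufficient LRAT -/- arrays alone.

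Assembly factors without an Nduf name were measured for 14 of 15 genes, with 0 called. Foxred1, an assembly factor with an oxidoreductase fold, had 8.77, 8.84 and 8.59 in LRAT -/- on the deficient diet, against 9.14, 9.07 and 9.13 in wild type, without overlap (-0.38, limma, adjusted p = 0.235). Lyrm2 was at 0.51 for diet with overlapping groups. The median of the 14 was -0.03 for genotype, 0.02 for diet and -0.0006 for both together.

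Of the 8 genes of complex II and its assembly, the other entry of electrons to ubiquinone from the citric acid cycle, 0 were called. Sdhb, its iron-sulfur subunit, had 12.70, 12.68 and 12.58 on the deficient and 12.65, 12.68 and 12.61 on the sufficient LRAT -/- arrays, against 13.07, 12.77 and 12.92 in wild type, with every LRAT -/- array below wild type (-0.27 on the sufficient diet, limma, adjusted p = 0.501). Sdha, the flavin subunit, was at -0.32 in deficient LRAT -/- against wild type (limma, adjusted p = 0.444).

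Regulators of mitochondrial genes, 12 in all, had 0 called, with Ppargc1b, a coactivator of respiratory genes, at -0.31 for diet (limma, adjusted p = 0.959). Of 11 genes taken for mitochondrial content 0 were called, and 10 were lower in LRAT -/- than in wild type on the sufficient diet, with citrate synthase, Cs, at -0.14 there and at -0.21 in deficient LRAT -/- against wild type. Of 13 measured enzymes that use NADH or ubiquinone or make ubiquinone 0 were called.

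Probe sets of the same gene mostly ran alike, except for Ndufb3, a subunit of the membrane arm. The brighter Ndufb3 probe set, which the rule takes, is named Cbx3, a chromatin protein gene, in the other deposited table of probe set names. It had 9.48, 9.43 and 9.69 in deficient LRAT -/-, 9.48, 9.48 and 9.78 in sufficient LRAT -/- and 9.32, 9.48 and 9.48 in wild type, with 1 value shared to 4 decimals by 5 of the 9 arrays and a diet difference of -0.05. The dimmer one, named Ndufb3 in both tables, had 9.33, 9.83 and 9.52 in LRAT -/- on the deficient diet, against 9.27, 9.49 and 9.08 in LRAT -/- on the sufficient diet and 8.87, 8.88 and 9.56 in wild type. That is a difference of 0.28 for diet and 0.46 for deficient LRAT -/- against wild type, so the value of Ndufb3 depends on the probe set. For Ndufab1, the mitochondrial acyl carrier protein, and for Ndufb11 and Ndufs5, both probe sets had the same sign in every comparison.

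At the ends of the brightness range, where the signal has least and most room above background, Ndufaf5 had 7.81, 8.09 and 7.84 in LRAT -/- on the deficient diet, 7.92, 7.75 and 7.42 in LRAT -/- on the sufficient diet and 7.71, 7.52 and 8.13 in wild type. Its arrays lie on either side of the control percentile. Ndufaf6, another assembly factor, averaged 8.35 ± 0.14 in deficient LRAT -/-, 8.36 ± 0.02 in sufficient LRAT -/- and 8.33 ± 0.30 in wild type (SD, n = 3 each). Ndufb9, a membrane-arm subunit, had 13.74, 13.80 and 13.72 in deficient LRAT -/-, 13.68, 13.74 and 13.58 in sufficient LRAT -/- and 13.70, 13.73 and 13.85 in wild type. Ndufs7 averaged 13.64 ± 0.08 in deficient LRAT -/-, 13.65 ± 0.08 in sufficient LRAT -/- and 13.69 ± 0.04 in wild type (SD, n = 3 each). All of these overlapped in every comparison. Ndufa4 also overlapped throughout, with 12.98, 12.84 and 13.06 in deficient LRAT -/-, 12.81, 12.75 and 12.97 in sufficient LRAT -/- and 12.69, 12.74 and 12.90 in wild type. Its paralog Ndufa4l2, known for its induction in low oxygen, averaged 8.74 ± 0.12 in deficient LRAT -/-, 8.47 ± 0.24 in sufficient LRAT -/- and 8.52 ± 0.42 in wild type.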

How the data were processed

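Left ventricles were measured on 9 Affymetrix MoGene arrays, 1 per sample. The log2 signals were deposited by the authors per sample after RMA, per the submitters' processing notes, which also name R 3.1.2 and mm8 without a role; the log2 scale was read from the values. The authors' deposited table gives ratios and p-values for each pair of groups and a false discovery rate, per the file headers, with no test named. A further deposited RMA table has 9 value columns whose headings fit none of the labels. They were not used, and only its names and control annotation were read.

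Symbols come from the authors' comparison table, 23069 genes from 26107 probe sets, with the brightest probe set per gene. Group differences were fitted with limma 3.58.1 in R 4.3.3 (1 mean per group over 9 arrays, eBayes, two-sided, Benjamini-Hochberg adjustment over all genes), checked on simulated data, and summarised in Python 3.11.15 with pandas 2.3.3. The number of arrays limits the precision. Files do not share the build of the RefSeq tables (GRCm38.p6), so no probe coordinates are given. Results of some genes are not reported here by name. The members and lists were chosen with earlier results of these data known. Genes given array by array are the nuclear core subunits, the 4 higher and 4 lower with the lowest p per comparison, the brightest and dimmest pairs, and Ndufa4 with Ndufa4l2; a few more were added after their values were seen (Ndufa1, Ndufs6 and Ndufv3).

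Replicate numbers recur in the groups. Deviations of same-numbered arrays from their group mean correlated at 0.212 to 0.264 between the LRAT -/- diets. Those of differently numbered arrays correlated at -0.145 to -0.0684 there. The deviations of a group cancel out, so these values are tied to each other. Between either LRAT -/- group and wild type, same-numbered arrays correlated at -0.142 to 0.125. The fit behind the differences, intervals and p-values above did not pair arrays by these numbers. They entered only through the replicate block among the alternatives. Alternatives were the probe set rule, signal filters, normalization, arrays and variance model of the fit, the replicate block and leaving out each array.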

Additional observations from a re-analysis of the deposited data

How the results depend on the processing

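None of the 42 genes was called for diet under any setting tried. In the comparisons with wild type Ndufa12 alone was called, without wild-type array 3 in both (0 to 1 genes over all arrays left out) and with array weights for deficient LRAT -/- against wild type (1 gene). With single arrays left out, 11 to 109 of all genes were called for genotype. Omitting wild-type array 1 left 15, omitting array 3 of that group gave 109, omitting sufficient LRAT -/- array 2 or 3 left 11, and omitting deficient LRAT -/- arrays 1, 2 and 3 left 14, 14 and 15. For genotype with diet 11 to 283 were called: omitting wild-type array 1 left 15, omitting array 3 of that group gave 283, and omitting deficient LRAT -/- arrays 1, 2 and 3 left 14, 12 and 11. A model of the compared groups alone called 5 genes for genotype and 7 for genotype with diet, and array weights called 76 for genotype with diet. The replicate block called 22 genes for genotype, 0 for diet and 25 for both, and changed no call among the 42. With the block and the LRAT -/- arrays alone, added after seeing the data, the lowest adjusted p of the 42 for diet was 0.457. The median of the 42 over arrays left out ran from -0.0877 to 0.0364 for genotype, 0.071 to 0.095 for diet and 0.00222 to 0.15 for both. With subunits alone, also added after seeing the data, it was -0.07 for genotype, 0.10 for diet and 0.02 for both. Ndufb3 turned sign for diet with the mean of its probe sets (0.12) and with single arrays left out (-0.125 to 0.0503). The cause of these shifts was not tested. The number of arrays limits what can be called: intervals reached a median of 0.21 on the log2 scale to either side.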

Other observations

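The other deposited table of probe set names gives an Nduf symbol to 8 probe sets that the comparison table names otherwise or not at all, and these were not counted among the 42 genes. A probe set named Ndufaf2 there, an assembly factor related in sequence to Ndufa12, had 8.91, 9.02 and 8.87 in LRAT -/- on the deficient diet, 8.76, 8.81 and 8.67 in LRAT -/- on the sufficient diet and 8.27, 8.27 and 9.15 in wild type. Wild-type array 3 was again the highest of its group, and the other wild-type arrays were below all LRAT -/- arrays. A probe set named Ndufc1, a small membrane-arm subunit, had 12.54, 12.62 and 12.63 in LRAT -/- on the deficient diet, against 12.13, 12.29 and 12.68 in wild type. Both probe sets named Ndufb4 were narrow, the brighter averaging 14.07 ± 0.02, 14.03 ± 0.04 and 14.08 ± 0.06 in LRAT -/- deficient, LRAT -/- sufficient and wild-type hearts (SD, n = 3 each).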
